A study of Mus musculus with 7 samples.

Results

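The genes described here are neighbours at the distal end of mouse chromosome 11, from Cant1 to Metrnl. They were chosen by measured values, because a run of genes there was higher in Met1 than in DB7 tumours on these same arrays, so every Met1 against DB7 value of the members is a description and supports nothing about the choice. The list names 47 genes, and 39 of them had at least 1 probe set annotated to that gene alone, out of 12393 genes measured in this way. Together the 39 had 65 probe sets among 22626. The other 8 genes, Engase, Tbc1d16, Eif4a3, Rnf213, Rptor, Arhgdia, Lrrc45 and Fn3krp, had no such probe set and have no value here.

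Expression was measured on 1-colour arrays in 7 transplanted mouse mammary tumours, 3 of the line Met1 and 4 of the line DB7. Both lines are known to descend from mice that carry polyoma middle T antigen under the mouse mammary tumour virus promoter, which is active mainly in mammary epithelium. Met1 carries the unmutated oncogene and is known to spread readily to the lung, whereas DB7 carries a mutated middle T and seldom spreads. Each group is thus 1 transplantable line, and the lines differ in the transgene as well as in behaviour. The sample labels give no host, age or passage, and the series text speaks of outcross tumours where the labels name transplants. Groups here follow the labels.

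Whether each array came from its own animal is not stated, so the spread given here may be partly technical. Values are log2 probe set levels, and a difference is Met1 minus DB7 on that scale with its moderated standard error (SE) from a fit over all probe sets. Correlations over all probe sets were 0.994 to 0.996 within Met1, 0.986 to 0.992 within DB7 and 0.967 to 0.972 between the lines, and array medians lay between 6.53 and 6.61. Of 6 luminal epithelial markers, 5 lay above the median of every array, Epcam among them. In whole tumours, fewer cells of a type and less RNA per cell cannot be told apart.

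Genes that lie side by side on a chromosome can share copy number, chromatin domain and regulatory elements, and a pair transcribed away from a common start region can share a promoter. The interval is dense with genes of unrelated function. It holds Polycomb subunits, lysosomal enzymes, actin regulators, kinases, subunits of ubiquitin machinery and a small cluster of immune surface proteins. A pattern shared by such neighbours is therefore described by position first and by role afterwards.

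Along the chromosome the members fell into 3 stretches, whose limits were set after the values were seen. In the stretch nearest the centromere, the 4 measured members Cant1, C1qtnf1, Cbx2 and Cbx8 were lower in Met1, with differences of -1.25 to -0.63. In the long middle stretch from Gaa to Rab40b, 29 of 32 measured members lay above 0, and the median difference was 1.03. In the stretch nearest the telomere, Fn3k, Tbcd and Metrnl were lower again, at -0.77, -1.12 and -0.87. The name of a block that is higher in Met1 therefore holds for the middle stretch and not for its ends.

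**Figure D1:**
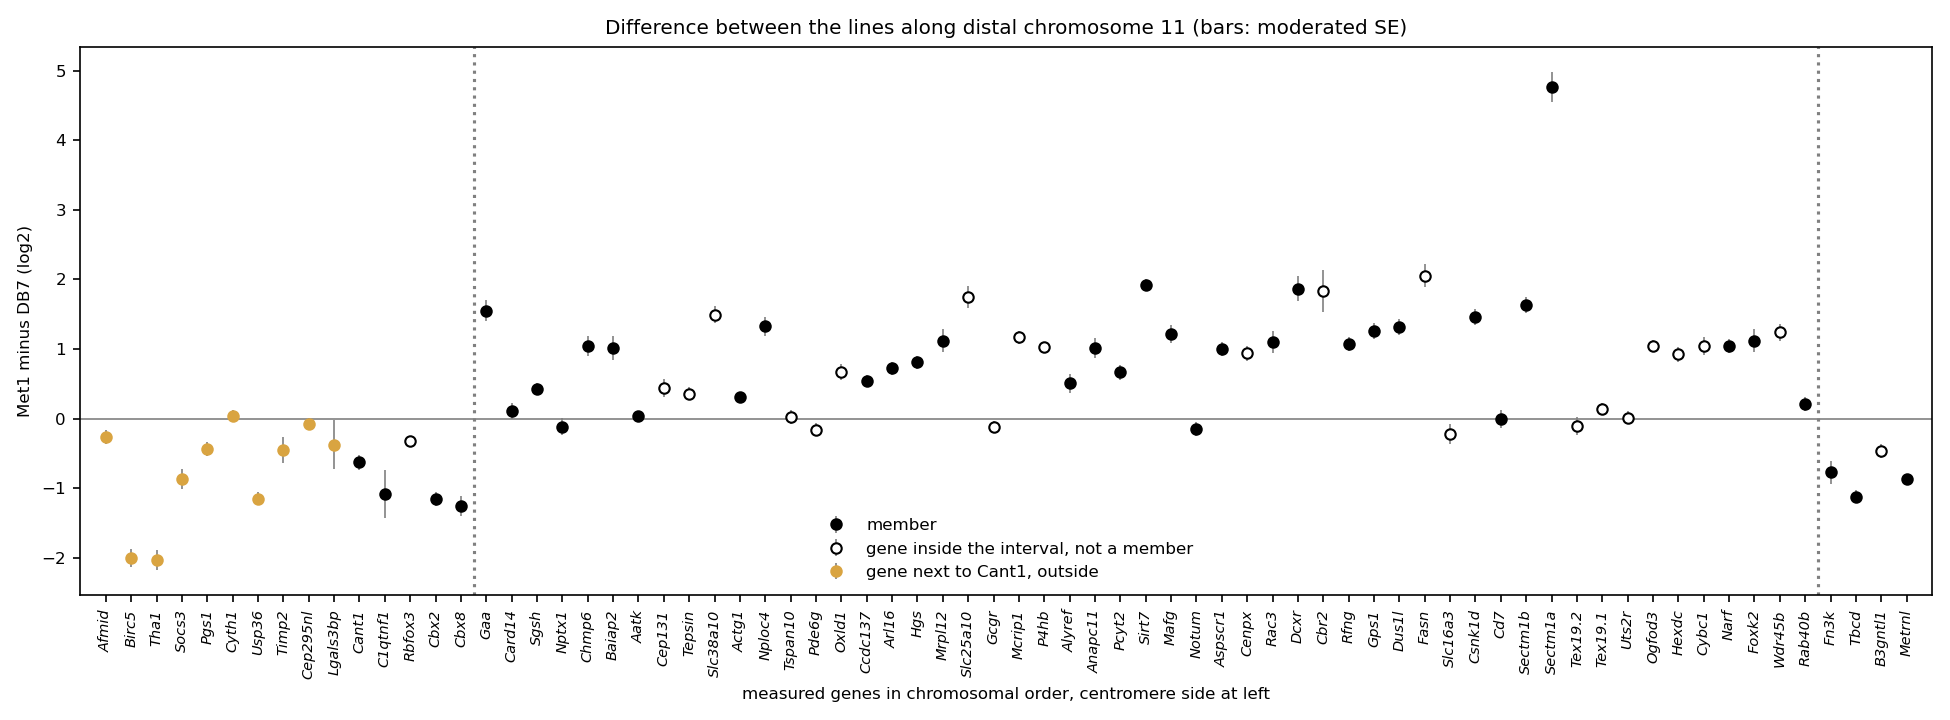
Met1 minus DB7 difference (log2, vertical axis; bars are the moderated SE) of each measured gene in chromosomal order from the centromere side (left), with members filled, other genes of the interval open and the 10 measured genes next to Cant1 in yellow. Values step from -1.25 at Cbx8 to 1.55 at Gaa and from 0.21 at Rab40b to -0.77 at Fn3k (dotted lines).

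Over all 39 measured members the median difference was 0.81, against -0.05 over all measured genes. The 3 Met1 arrays lay above all 4 DB7 arrays in 26 members, beside 11.5% of all measured genes. They lay below in 7 members, beside 17.3% of all genes, and the lines overlapped in the remaining 6. Of the 53 member probe sets bright enough to be tested, 38 were called higher in Met1 in limma (adjusted p under 0.05), where 13.4% of all tested probe sets were. A further 10 were called lower, where 17.6% of all tested probe sets were. These counts repeat the contrast that chose the genes.

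Both steps lay between neighbouring measured members. Cbx8, a chromodomain subunit of Polycomb repressive complex 1, measured 6.48, 6.06 and 6.43 in the Met1 arrays and 7.26, 7.68, 7.73 and 7.66 in the DB7 arrays. Every DB7 array was higher than every Met1 array, with a difference of -1.25 (SE 0.14). That size is approximate, because Cbx8 lay below the array median on all Met1 arrays and passed the intensity filter through DB7 alone. Its other probe set, below that filter, differed by -0.44. Gaa, the lysosomal alpha-glucosidase that breaks down glycogen, is the next measured gene and went the other way, at 9.94, 9.51 and 9.65 in Met1 and 8.36, 8.31, 7.83 and 8.11 in DB7. Its difference was 1.55 (SE 0.15), or 2.93-fold. The listed gene between these, Tbc1d16, was not measured.

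At the other end, Rab40b, a Rab-family GTPase, differed by 0.21 (SE 0.10), and the lines overlapped at its brightest probe set. Its other probe set, which lay below the intensity filter, differed by 0.94. Fn3k, the kinase that removes sugar adducts from proteins, was 5.62 ± 0.11 (SD, n = 3) in Met1 tumours against 6.39 ± 0.35 (SD, n = 4) in those of DB7, and lay below the intensity filter. Tbcd, a chaperone of tubulin assembly, stood at 10.14, 10.08 and 9.97 in Met1 and 11.23, 11.03, 11.32 and 11.15 in DB7. Metrnl, a secreted meteorin-like protein, stood at 7.81, 7.79 and 7.89 against 8.67, 8.74, 8.77 and 8.62. Both were lower on all 3 Met1 arrays than on any DB7 array. No gene beyond Metrnl was measured.

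Chromatin and transcription genes were all measured, and 4 of the 6 were higher in Met1. Sirt7, a deacylase of the nucleolus, measured 9.05, 9.05 and 8.81 in Met1 and 6.96, 7.08, 7.03 and 7.12 in DB7. That is a difference of 1.92 (SE 0.09), or 3.79-fold, and the DB7 arrays spread by no more than 0.07 (SD). Mafg, a small Maf protein that pairs with NRF2, stood at 9.89, 9.32 and 9.45 against 8.21, 8.32, 8.38 and 8.45 (difference 1.22, SE 0.14). The highest Mafg array was Met1 1, and no DB7 array reached the lowest Met1 value. The forkhead factor Foxk2 differed by 1.12 (SE 0.16) and Narf, a binding partner of prelamin A, by 1.04 (SE 0.09). Cbx2, the Polycomb neighbour of Cbx8, was lower in Met1, at 7.05, 6.96 and 7.09 against 7.94, 8.30, 8.25 and 8.27, so that both Polycomb genes of the list were lower while the other 4 genes of the group were higher.

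In the RNA and protein synthesis group, 4 of 5 listed genes were measured and all 4 were higher in Met1. Dus1l, a dihydrouridine synthase that modifies transfer RNA, measured 9.41, 9.19 and 9.32 in Met1 and 7.72, 8.03, 8.14 and 8.07 in DB7 (difference 1.32, SE 0.11). The gap between the lines was wider than the range within either. Mrpl12, a protein of the mitochondrial ribosome, was higher by 1.12 (SE 0.17), with DB7 arrays from 8.46 to 9.22. Ccdc137 differed by 0.54 (SE 0.09). Alyref, an adaptor of messenger RNA export, differed by 0.51 (SE 0.14), the smallest of this group, and was 9.54 ± 0.18 (SD, n = 3) in Met1 tumours against 9.03 ± 0.22 (SD, n = 4) in those of DB7.

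Ubiquitin and protein complex genes were higher in Met1 in all 3 measured cases of 4 listed. Nploc4, a cofactor of the segregase VCP, measured 9.20, 9.01 and 8.75 in Met1 and 7.48, 7.51, 7.80 and 7.85 in DB7 (2.51-fold). Gps1, a subunit of the COP9 signalosome, measured 10.58, 10.46 and 10.35 against 8.97, 9.44, 9.23 and 9.19 (2.4-fold). Neither gene had an overlapping array. Anapc11, the RING subunit of the anaphase-promoting complex, was 2.02-fold higher (difference 1.01, SE 0.14).

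Membrane traffic genes included 5 measured members of 6 listed, all above 0. Chmp6, a component of ESCRT-III, was higher by 1.05 (SE 0.15), and Aspscr1, a tether of glucose transporter vesicles, by 1.00 (SE 0.10). Hgs, the ESCRT-0 protein that gathers ubiquitinated receptors on endosomes, was higher by 0.81 (SE 0.10). Arl16, an ARF-like GTPase, was higher by 0.73 although it lay below the intensity filter. Its other probe set, also below that filter, differed by 0.11 with overlapping lines. Rab40b is described above. Among these 5 members, Rab40b was the one in which the lines overlapped at the brightest probe set.

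Cytoskeletal genes had 4 measured members of 6. Rac3, a small GTPase that acts on actin, was higher in Met1 by 1.10 (SE 0.16), with Met1 values from 8.41 to 9.08 and DB7 values from 7.42 to 7.83. Baiap2, a membrane-bending adaptor of Rac and Cdc42, was higher by 1.02 (SE 0.17) at its brightest probe set. The cytoplasmic actin gene Actg1 differed by 0.31 (SE 0.07), or 1.24-fold, at 13.07 ± 0.06 (SD, n = 3) in Met1 tumours against 12.76 ± 0.11 (SD, n = 4) in those of DB7. Its single probe set is of a type that related transcripts can share, as actin genes and their pseudogenes do. Tbcd, in the telomeric stretch, was the member of the group that was lower.

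Kinases and adaptors, with 3 measured members of 4, held 1 large difference and a pair near 0. Csnk1d, a casein kinase of the circadian clock, measured 10.90, 10.84 and 10.85 in Met1 and 9.18, 9.28, 9.51 and 9.63 in DB7 (2.76-fold). The Met1 arrays were almost equal, while DB7 arrays spread over 0.21 (SD). Its brightest probe set is of a type that related transcripts can share. The difference of 1.46 was 1.07 as the mean over its 5 probe sets and 0.22 at the brightest of the 3 probe sets not of such a type. Card14, a scaffold of NF-kB signalling in keratinocytes, measured 6.69, 6.68 and 6.95 in Met1 and 6.64, 6.46, 6.74 and 6.82 in DB7. Aatk, a kinase known from neural cells, measured 6.47, 6.45 and 6.41 against 6.42, 6.42, 6.42 and 6.36. The lines overlapped in both, with differences of 0.11 (SE 0.11) and 0.04 (SE 0.07), and Rptor, the raptor subunit of mTORC1, was not measured.

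Enzymes of the lysosome and of sugar and lipid metabolism had 7 measured members of 9, of which 5 were higher and 2 lower in Met1. Dcxr, a reductase of L-xylulose and dicarbonyl sugars, measured 10.29, 9.61 and 9.49 in Met1 and 7.88, 8.10, 7.82 and 7.92 in DB7 (3.64-fold). Met1 1 stood above the other Met1 arrays, and all 3 lay above every DB7 array. Rfng, a fringe glycosyltransferase that modifies Notch, was higher by 1.08 (SE 0.10). Pcyt2, an enzyme of phosphatidylethanolamine synthesis, was higher by 0.66 (SE 0.11), and Sgsh, the sulfamidase of heparan sulfate breakdown, by 0.43 (SE 0.09). Cant1, a calcium-activated nucleotidase of the Golgi, was lower, with a difference of -0.63 (DB7 arrays 10.13 to 10.51, Met1 arrays 9.53 to 9.81).

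Secreted and surface proteins held the largest difference of all members and 3 of the 6 members in which the lines overlapped. Of its 7 members, 2 were above 0 and 5 below. Sectm1a, one of a pair of adjacent genes for secreted and transmembrane proteins, measured 9.24, 10.07 and 10.12 in Met1 and 5.13, 4.97, 4.78 and 5.27 in DB7. The difference was 4.77 (SE 0.21), or 27.3-fold, and it is approximate because DB7 lay below the median of every array. Its neighbour Sectm1b measured 7.76, 7.95 and 7.66 against 6.28, 6.21, 6.24 and 5.90, a difference of 1.63 (SE 0.11). Both were higher on every Met1 array, with Sectm1b also below the array medians in DB7. The genes are close relatives, so a probe set of one could take up signal of the other.

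Cd7, a receptor of T and NK cells whose human form binds SECTM1, lies beside Sectm1b, and the lines overlapped there. It measured 7.30, 7.04 and 6.98 in Met1 and 7.32, 6.86, 7.23 and 7.04 in DB7, a difference smaller than its SE of 0.13. Nptx1, a pentraxin of neurons, measured 6.35, 6.33 and 6.29 against 6.81, 6.25, 6.35 and 6.35. Notum, a secreted enzyme that inactivates Wnt proteins, differed by -0.14 (SE 0.10). The lines overlapped in all 3. C1qtnf1, a secreted relative of adiponectin in the centromeric stretch, was 7.45, 7.36 and 7.44 in Met1 and 8.43, 8.10, 7.88 and 9.58 in DB7, where DB7 4 was the highest. Its difference of -1.08 (SE 0.34) was -0.72 without DB7 4.

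**Figure D2:**
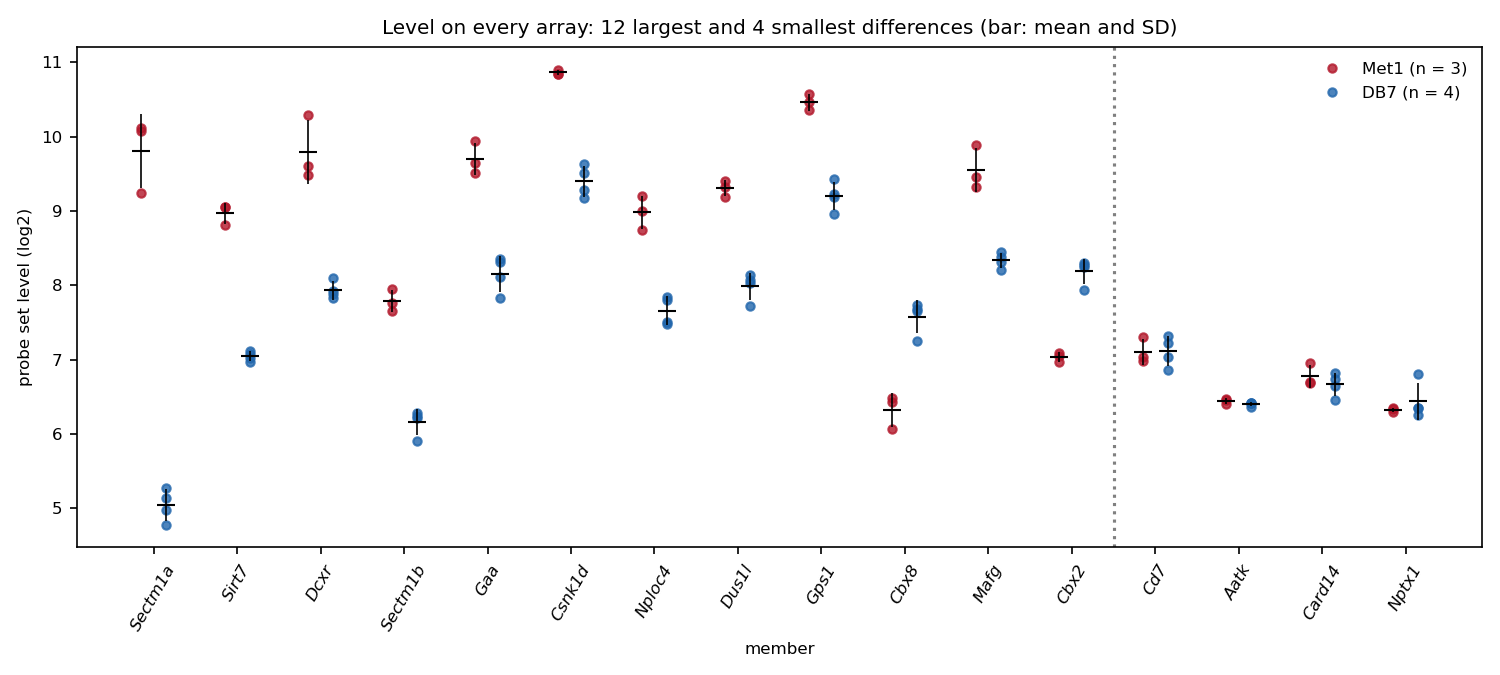
Log2 probe set level (vertical axis) on each Met1 (red, n = 3) and DB7 (blue, n = 4) array for the 12 members with the largest and the 4 with the smallest absolute difference; black bars are the mean and SD. Lines are apart for the 12 at left, from Sectm1a (4.77) to Cbx2 (-1.15), and overlap for Cd7, Aatk, Card14 and Nptx1.

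Of the 6 middle-stretch members in which the lines overlapped, 3 were dim. Of its 32 measured members, 28 passed the intensity filter, which asks for a level above the array median on at least 3 arrays, and 4 did not. Those 4, Nptx1, Aatk, Arl16 and Notum, had a median difference of -0.04. Of the 28, Cd7, Card14 and Rab40b had overlapping lines. A gene that passes only through the line in which it is high has to differ, so no weight rests on the count over the 28.

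Several members are transcribed away from each other from almost the same place. Among 34 members with an entry in the RefSeq promoter table (build GRCm38.p6; 250 bases before to 50 after the start), 3 pairs of members had opposite strands and starts less than 250 bases apart. Arl16 and Hgs start 35 bases apart, Alyref and Anapc11 56, and Rfng and Gps1 66. All 6 genes were higher in Met1 at their brightest probe set, but by unequal amounts within a pair. The differences were 0.73 and 0.81 for Arl16 and Hgs, 0.51 and 1.01 for Alyref and Anapc11, and 1.08 and 1.26 for Rfng and Gps1. Arl16 lay below the intensity filter, and its other probe set differed by 0.11. With genes outside the list, Ccdc137 forms such a pair with Oxld1 (0.54 and 0.67), and Lrrc45, not measured, with Cenpx (0.94). Actg1 and Mafg form such pairs with genes that have no value here.

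The promoters of 1 gene of each pair are shown for this shared layout, and those of Cbx8 and Gaa because they flank the first step. Each is given 5′ to 3′ on the gene's own strand, in lower case, with capitals for any match on either strand to TATAAA (the TATA box), to GGGCGG (the GC box), to CCAAT (the CCAAT box), to CACGTG (an E-box) or to TTCNNNGAA (the site form read by STAT proteins). Cbx8 is read from chr11:119040864-119041163 (minus strand), Gaa from chr11:119267713-119268012 (plus), Hgs from chr11:120467385-120467684 (plus), Alyref from chr11:120598316-120598615 (minus) and Rfng from chr11:120784155-120784454 (minus).
Cbx8: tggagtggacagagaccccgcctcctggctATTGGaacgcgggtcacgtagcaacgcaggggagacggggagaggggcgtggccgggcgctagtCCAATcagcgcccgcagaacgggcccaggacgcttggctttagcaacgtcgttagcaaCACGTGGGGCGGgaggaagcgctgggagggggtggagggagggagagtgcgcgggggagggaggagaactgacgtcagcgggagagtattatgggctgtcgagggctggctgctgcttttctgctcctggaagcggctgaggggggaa
Gaa: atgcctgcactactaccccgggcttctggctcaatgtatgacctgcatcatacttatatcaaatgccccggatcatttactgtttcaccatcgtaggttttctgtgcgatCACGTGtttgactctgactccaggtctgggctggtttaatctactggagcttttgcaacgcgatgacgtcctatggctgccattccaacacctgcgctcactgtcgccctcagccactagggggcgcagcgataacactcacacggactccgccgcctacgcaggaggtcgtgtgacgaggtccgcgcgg
Hgs: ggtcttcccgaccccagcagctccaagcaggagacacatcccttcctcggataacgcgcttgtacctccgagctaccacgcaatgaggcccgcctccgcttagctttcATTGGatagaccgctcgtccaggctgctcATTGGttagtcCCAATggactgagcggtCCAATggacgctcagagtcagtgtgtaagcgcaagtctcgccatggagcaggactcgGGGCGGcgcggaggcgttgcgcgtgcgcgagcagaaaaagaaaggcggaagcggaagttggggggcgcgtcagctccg
Alyref: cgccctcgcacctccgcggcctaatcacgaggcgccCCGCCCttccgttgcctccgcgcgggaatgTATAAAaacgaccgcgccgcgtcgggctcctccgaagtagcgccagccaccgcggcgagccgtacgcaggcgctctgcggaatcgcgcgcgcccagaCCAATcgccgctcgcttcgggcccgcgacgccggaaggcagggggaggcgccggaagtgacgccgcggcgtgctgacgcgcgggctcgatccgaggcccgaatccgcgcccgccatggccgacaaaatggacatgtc
Rfng: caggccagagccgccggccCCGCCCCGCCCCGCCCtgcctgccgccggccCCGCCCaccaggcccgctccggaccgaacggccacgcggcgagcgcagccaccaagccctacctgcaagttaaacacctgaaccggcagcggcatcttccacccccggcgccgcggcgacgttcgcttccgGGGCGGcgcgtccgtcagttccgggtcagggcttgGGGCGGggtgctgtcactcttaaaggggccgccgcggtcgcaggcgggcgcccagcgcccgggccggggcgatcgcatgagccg

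The promoters on either side of the step both hold 1 CACGTG, which in Cbx8 directly precedes the GGGCGG match. Hgs holds 4 CCAAT matches, Rfng holds 6 GGGCGG matches, and Alyref holds 1 TATAAA and 54 CpG dinucleotides. Over the 34 member promoters the median GC content was 66.5%, against 59.3% over 9882 promoters of genes measured on these arrays. The 34 were drawn from all 47 listed genes, measured or not. Windows of the 3 pairs overlap, so part of their sequence was counted for both genes. GGGCGG was present in 73.5% of member promoters and in 57.5% of those 9882. CACGTG was present in 17.6% and 9.33%, CCAAT in 41.2% and 38.1%, TATAAA in 5.88% and 10.1% and TTCNNNGAA in 2.94% and 7.04%. These are matches of letters, not binding sites.

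Where a member had several probe sets, they mostly pointed the same way. Of 18 such members, Baiap2 alone had probe sets of both signs, from 1.02 at the brightest to -0.11 at one below the intensity filter. Sizes differed more than signs. The 5 probe sets of Csnk1d gave 0.22 to 1.62. The 3 whose names do not mark possible sharing with other transcripts gave 0.22 at the brightest of them, 0.99 and 1.09. Tbcd gave -1.12 and -1.79, Cbx8 -1.25 and -0.44, Cbx2 -1.15 and -0.44 and Sectm1b 1.63 and 0.82. The 3 probe sets of Narf lay between 0.66 and 1.04, and those of Dus1l within 0.05 of each other.

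**Figure D3:**
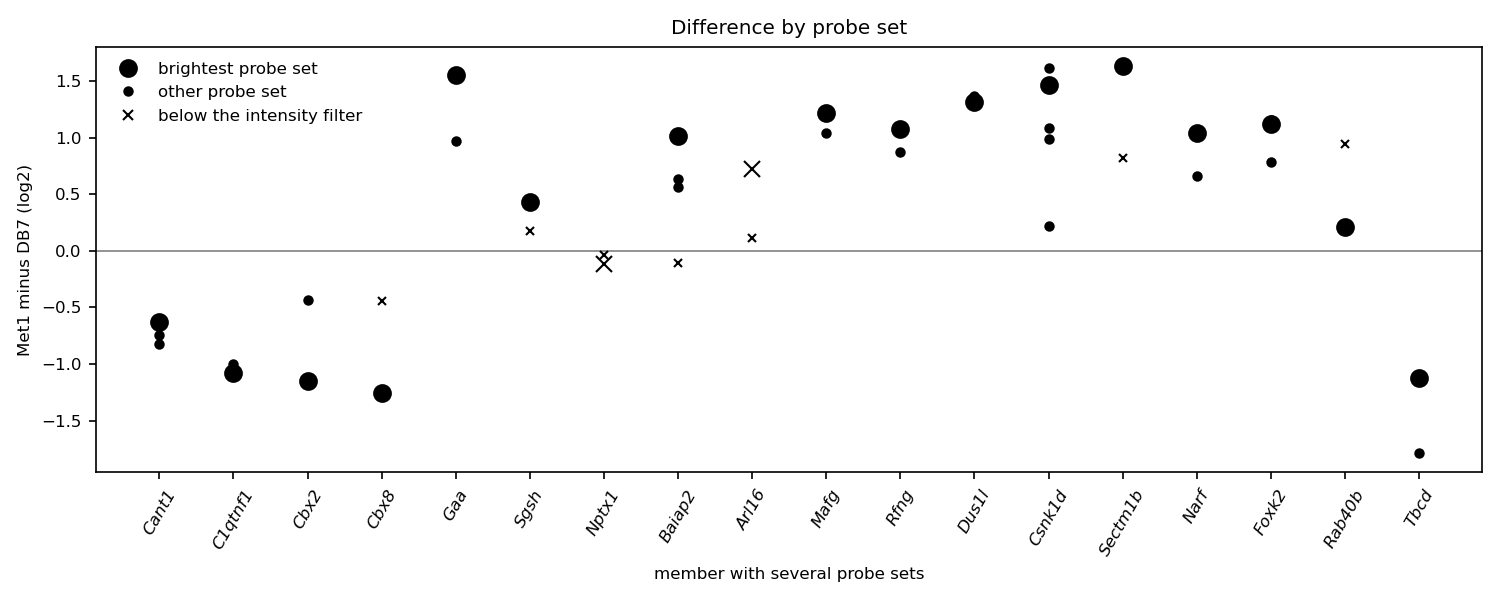
Met1 minus DB7 difference (log2, vertical axis) of each probe set of the 18 members with several, in chromosomal order; large marks are the brightest probe set of a gene and crosses those below the intensity filter. Baiap2 has probe sets on both sides of 0, and Csnk1d has the widest range, 0.22 to 1.62.

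The list leaves out other genes of the same interval. The arrays measured 23 further genes between Cant1 and Metrnl. In the middle stretch, 17 of 21 lay above 0 with a median of 0.92, beside 29 of 32 and 1.03 for members. Over all measured genes, 4752 of 12393 lay above 0. These further genes lie in the run by which the interval was chosen, and the limits of the stretch were set after the values were seen. Their values are therefore a description as well. Rbfox3 in the centromeric stretch and B3gntl1 in the telomeric stretch were lower in Met1, at -0.33 and -0.46. Each is the only such gene measured in its stretch, and Rbfox3 lay below the intensity filter.

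The largest of these were metabolic. Fasn, fatty acid synthase, measured 10.37, 10.38 and 10.30 in Met1 and 8.02, 8.07, 8.31 and 8.76 in DB7 (difference 2.06). Cbr2, a carbonyl reductase next to Dcxr, measured 9.17, 8.93 and 8.41 against 7.71, 6.69, 6.39 and 7.21 (difference 1.83), and Slc25a10, the mitochondrial dicarboxylate carrier, differed by 1.74. The transporter gene Slc38a10 was 2.82-fold higher, and 2 others were higher as well, Wdr45b by 1.24 and Mcrip1 by 1.17. The lines did not overlap in any of these 6. Slc16a3, a lactate transporter next to Csnk1d, differed by -0.22 with overlapping lines.

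Just outside the interval, 9 of the 10 measured genes next to Cant1 lay below 0 and the lines overlapped in 5 of the 10. Over all measured genes, 7641 of 12393 lay below 0 and the lines overlapped in 8816. The median of the 10 was -0.44, beside -1.12 for the 4 members of the centromeric stretch. The nearest to Cant1, Lgals3bp, differed by -0.38, Cep295nl by -0.07 and Timp2 by -0.45, all 3 with overlapping lines. Usp36, a deubiquitinase of the nucleolus, was lower, with a difference of -1.15 (Met1 7.78 to 7.87, DB7 8.85 to 9.17). Tha1, a threonine aldolase, differed by -2.04. Birc5, the mitotic protein survivin, stood at 8.62 to 8.81 in Met1 and at 10.42 to 10.96 in DB7. Socs3 and Pgs1 differed by -0.87 and -0.44. Cyth1 was the 1 gene of the 10 above 0, at 0.04. The start of the list at Cant1 is therefore not where values turned: they turned between Cbx8 and Gaa.

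Over the rest of chromosome 11 the 979 measured genes had a median difference of -0.06, and 2.45% of them were at least 2-fold higher in Met1. On the other 19 chromosomes with values, medians ran from -0.09 to 0.18, the highest being that of chromosome 12. In running medians of 15 measured genes, the highest value within the interval was 1.26, centred on Gps1, and the lowest was -0.44, centred on Cant1. In windows wholly on the centromere side of Cant1, running medians ran from -0.83, centred on Mif4gd, to 0.34, centred on Cog1. Windows of this width can hide shorter runs. The consecutive measured genes from Itgb4 to Ten1, on that side, were all higher in Met1, by 0.54 to 1.61. The running median there was -0.05 to -0.01. No test was made of these differences.

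**Figure D4:**
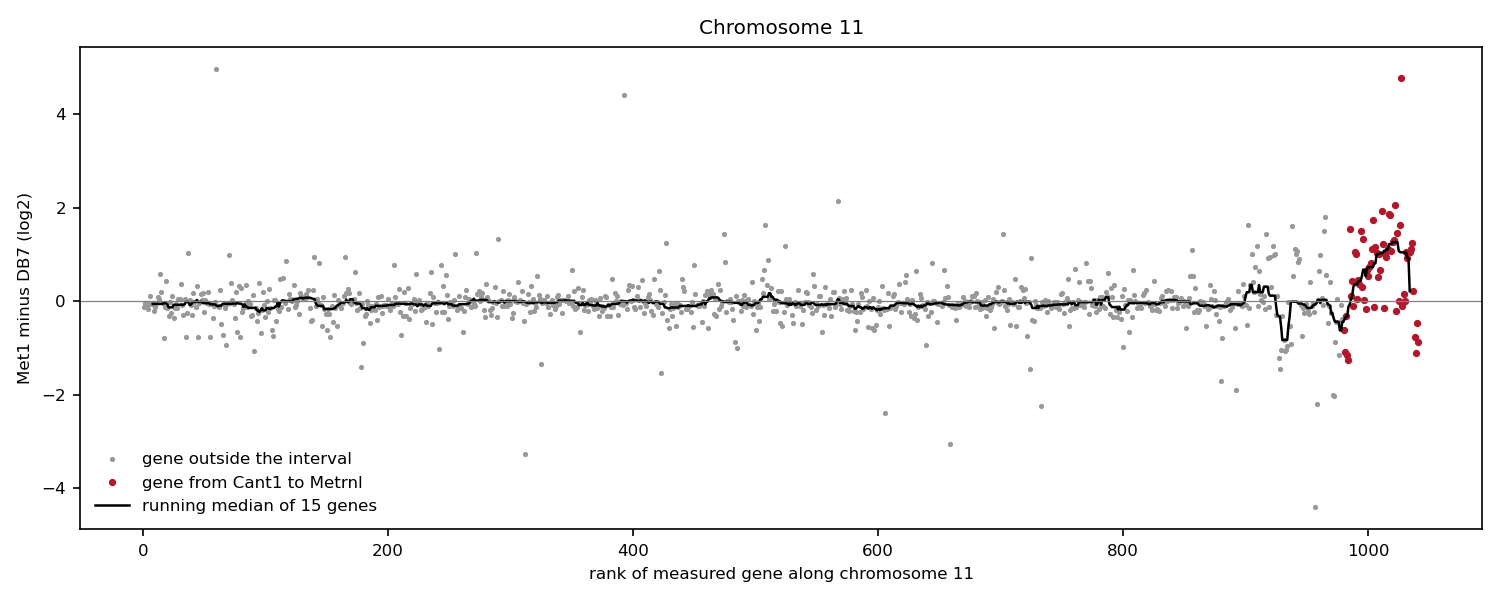
Met1 minus DB7 difference (log2, vertical axis) of each measured gene against its rank along chromosome 11, with genes from Cant1 to Metrnl in red, the others in grey and the running median of 15 genes as a black line. The line reaches 1.26 within the interval and stays between -0.83 and 0.34 in windows on its centromere side.

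Spread within a line was not used to choose the members. The median within-line SD of the members was 0.13 in Met1 and 0.17 in DB7, against 0.09 and 0.13 over all measured genes. The intensity filter was passed by 34 of the 39 members and by 7481 of the 12393 genes. The SDs are thus not compared at like level. Among the Met1 arrays, Met1 1 was the highest in 27 of 32 middle-stretch members. It was the highest in 54.2% of all genes that passed the filter. After each array was centred on its median, it was the highest in 23 of the 32 and in 39.1% of all such genes. Relative to the DB7 mean of each gene, the middle stretch had a median of 1.21 in Met1 1, 0.89 in Met1 2 and 0.97 in Met1 3.

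The mean levels of the fibroblast, macrophage and endothelial marker lists were lowest in that array among the 3, and those of the T and NK cell and B cell lists highest, though not every marker followed its list. The mean of 5 fibroblast markers was 9.49 in Met1 1, 10.23 in Met1 2 and 9.85 in Met1 3, and that of 5 macrophage markers was 8.76, 9.18 and 8.97. The mean of 6 luminal markers was 10.02, 10.17 and 9.86. Their part in the order of the Met1 arrays was not tested. In DB7 the fibroblast mean ran from 8.56 in DB7 3 to 10.39 in DB7 1.

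Markers of other cell types were compared between the lines as well. Of 5 fibroblast, 5 macrophage and 4 endothelial markers measured, 4, 5 and 3 passed the intensity filter, and 0 of these were called in limma or had an unadjusted p under 0.05. Of 5 B cell markers, 0 passed the filter, so none was tested, and none lay above the array median on all arrays. Summed over its list, the fibroblast level ran from 47.4 to 51.1 in Met1 and from 42.8 to 52.0 in DB7, and the B cell level from 25.4 to 26.5 and from 26.4 to 33.6. The macrophage level ran from 43.8 to 45.9 in Met1 and from 41.4 to 46.9 in DB7, and the endothelial level from 26.3 to 27.3 and from 25.5 to 27.9. The ranges of the lines overlapped for each of these lists. Of 5 measured T and NK cell markers, 2 were tested and Cd3d was called lower in Met1, and the summed level ran from 30.5 to 31.4 in Met1 and from 30.9 to 32.9 in DB7. Of the 6 luminal markers, 5 were tested and 3 were called lower, Epcam, Krt8 and Krt18, at -0.48, -0.32 and -1.01. Krt19, Cdh1 and Cldn3 differed by 0.15, 0.06 and 0.16, with overlapping lines. The summed luminal level ran from 59.2 to 61.0 in Met1 and from 61.2 to 61.9 in DB7, without overlap. B cell and fibroblast levels were highest in DB7 1 and DB7 4 among the DB7 arrays. Without these 2 arrays the median difference was 1.03 over the middle stretch, against 1.03 with them, and 0.89 over all measured members, against 0.81. It was -0.91 over the centromeric stretch, against -1.12, and -1.04 over the telomeric stretch, against -0.87. C1qtnf1, in the centromeric stretch, differed by -0.58 without them, against -1.08. The part of cell makeup in these differences was not tested.

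**Figure D5:**
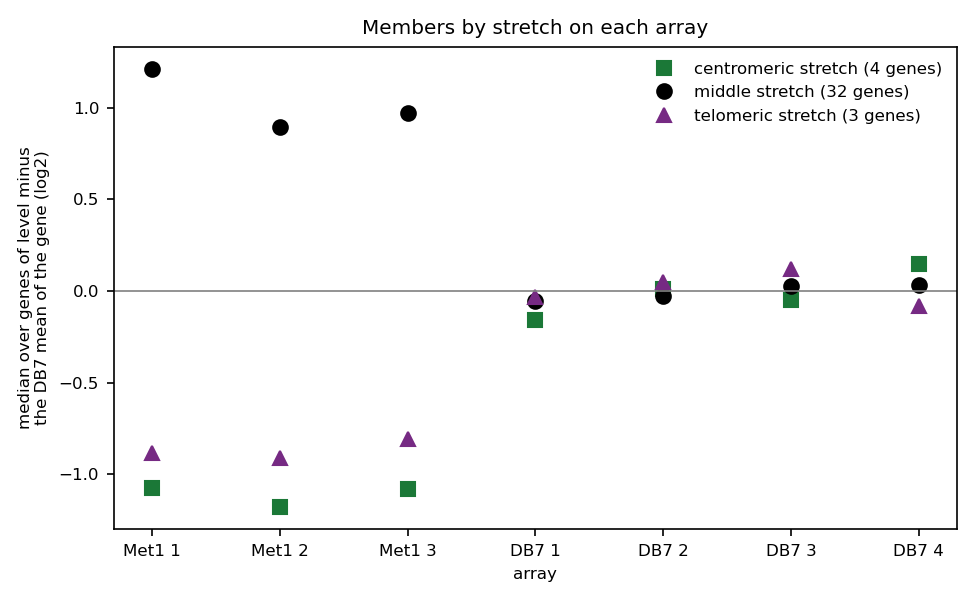
Median over the members of each stretch of the level minus the DB7 mean of the gene (log2, vertical axis) on each of the 7 arrays. The middle stretch (circles, 32 genes) lies at 0.89 to 1.21 in Met1 arrays and near 0 in DB7 arrays, and the centromeric (squares, 4 genes) and telomeric (triangles, 3 genes) stretches lie below -0.80 in all Met1 arrays.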

How the data were processed

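RNA of 3 Met1 and 4 DB7 tumours was measured on 1-colour Affymetrix arrays. The authors deposited summaries per probe set, taken as log2 from their range; RMA and MAS5 both stand in the submitters' processing notes, with no version and no statement of which was applied. Differences near the floor are approximate, and how the summary method shaped them is not known. Values were used as deposited. Of 22690 probe sets, 64 controls were left out. Platform annotation gave 1 gene symbol to 20380, several to 691 and none to 1555. Each gene was represented by its brightest probe set on average over 7 arrays. Gene order is that of the RefSeq table of GRCm38.p6.

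The comparison of the lines used limma 3.58.1 under R 4.3.3 (lmFit, trended eBayes, two-sided, Benjamini-Hochberg over 11704 probe sets above the array median on at least 3 arrays, threshold 0.05), checked on simulated data. The number of arrays limits precision. Members, lists and tests were chosen with earlier results of these data known. Array values are given for the 12 members with the largest and 4 with the smallest absolute difference, and for C1qtnf1, Tbcd and Metrnl, added after their values were seen. Among other genes, the 6 largest inside the interval are named. Outside it, the 6 largest among the 10 measured genes next to Cant1, and the 4 nearest Cant1, are named. Rbfox3, B3gntl1, Slc16a3 and Cyth1 were added after their values were seen. Larger differences than these 6 lay farther from the interval on chromosome 11. Promoter sequences are from RefSeq, and 13 members had no entry. Alternatives covered normalization, filter, variance model, array weights, probe set choice, a fold minimum, left-out arrays and the replicate number as a block.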

Additional observations from a re-analysis of the deposited data

Results flagged for a closer look

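Among the 4 DB7 arrays, 1 array stood apart from the others in 4 of 39 members, where chance gives about 1 in 20. In DB7 1, Cbx2 was 7.94 against 8.25 to 8.30 in the other DB7 arrays, and Cbx8 was 7.26 against 7.66 to 7.73. Baiap2 was 7.69 in DB7 3 against 7.48 to 7.50. Aatk was 6.36 in DB7 4 against 6.42 in the others, which were equal, and it lay below the intensity filter. The rate of 1 in 20 does not hold for tied values. Cbx2 and Cbx8 are neighbours set apart by the same array, so the 4 members are not separate counts. In Cbx2, Cbx8 and Baiap2 the outlying array still lay on the DB7 side of every Met1 array.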

How the results depend on the processing

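The median difference over measured members, 0.81, was 0.89 without the arrays DB7 1 and DB7 4, 0.66 with the mean over all probe sets of a gene and 1.01 over the 34 members that passed the filter. It ran from 0.74 to 0.86 when single arrays were left out. Probe sets called higher numbered 32 to 38 and those called lower 8 to 10 in these fits, against 38 and 10. Replicate numbers did not pair the arrays (correlations of same-numbered deviations -0.17, -0.05 and 0.02); with the replicate number as a block, 37 were called higher, 10 lower, and the median was 0.82. All other alternatives gave counts within 1.5 times the main ones. With any single Met1 array left out, 49 member probe sets were tested, against 53. The brightest probe sets of Sectm1a and Sectm1b, and a dimmer one each of Baiap2 and Narf, then left the test with their calls. These lay above the array median on the Met1 arrays alone. With DB7 1, DB7 2 or DB7 4 left out, 52 were tested. The dimmer probe set of Cbx2 then left the test with its call, as it lay above the array median on those arrays alone. The brightest probe set of Cbx8 also passed on DB7 arrays alone. Among probe sets still tested, calls were lost under some alternatives for 4, of C1qtnf1, Alyref, Actg1 and Cbx2. C1qtnf1 lost its call without DB7 1 or any single Met1 array, and Alyref without Met1 1, Met1 2 or DB7 3. Actg1 lost its call without Met1 1, and Cbx2, at its dimmer probe set, without Met1 2. The replicate block ended the calls of Actg1 and of that Cbx2 probe set, quantile normalization that of Actg1, no filter that of C1qtnf1 and leaving out DB7 1 and DB7 4 that of Alyref. Of 506 values of single members under alternatives, 490 moved by less than the SD between replicates, 16 moved by more and 0 of the called ones changed sign. Without detection calls, levels below the array median are approximate.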

Other observations

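Farther from the interval on the centromere side, differences alternated in sign over short runs of neighbours, chosen here after their values were seen. Sec14l1, Septin9 and Tnrc6c, adjacent measured genes, were higher in Met1, by 1.49, 1.81 and 0.57. Beyond them, Jmjd6, a hydroxylase of the nucleus, and Mettl23, a methyltransferase, differed by 0.64 and 0.98. The sialyltransferase gene St6galnac2 and its neighbour BC018473 differed by -4.41 and -2.20. Mettl23 and BC018473 lay below the intensity filter, and St6galnac2 lay below the array medians in Met1, so the sizes for these genes are approximate.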
